A study of Mus musculus with 2 samples.

Results

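Serpinb1a, Slpi, Wfdc17, Wfdc21, Cst3 and Cst7 encode protease inhibitors, or small proteins of the same families, that are made by cells of the neutrophil lineage. They are 6 of the 32285 genes listed in the deposited count tables, and they were chosen by name, each matching 1 row in both libraries. Their RNA was followed through the marrow cell types, along neutrophil maturation and between the 2 libraries, next to the RNA of the granule proteases that such inhibitors meet.

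Neutrophils store active serine proteases in their primary granules, which are filled at the promyelocyte stage, and release or leak them later in life. Neutrophil elastase (Elane), proteinase 3 (Prtn3) and cathepsin G (Ctsg) are the main ones, and dipeptidyl peptidase 1 (Ctsc), a cysteine protease, trims them to their active form. The cell protects itself with several inhibitor families. Serpins trap a protease in a covalent complex, and Serpinb1a is the intracellular serpin that holds elastase, proteinase 3 and cathepsin G in neutrophils. Proteins with a whey acidic protein (WAP) domain include Slpi, a secreted inhibitor of elastase and cathepsin G, and the smaller Wfdc17 and Wfdc21, whose targets are less well known. Cystatins block cysteine cathepsins, with Cst3 (cystatin C) widely secreted and Cst7 (cystatin F) acting inside granules and lysosomes of blood cells, where cathepsin C is among its targets.

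The data are 1 Ctrl library and 1 cKO library of bone marrow, sequenced as single cells from the 3′ end of RNA after capture in droplets, each from mice of the C57BL/6 background aged 13 to 14 weeks, after c-Kit+ HSPCs had been added to bone marrow cells to enrich progenitors. The cKO mice carried Map4k4 f/f and Mx1-Cre, an interferon-inducible Cre that is not limited to 1 lineage, and received poly I:C to induce it. The Ctrl mice were Mx1-Cre littermates whose genotype the methods write as Map4k4 -/-, and whether they received poly I:C and how many mice made up each library are not given in the sources used here. With 1 library per condition no difference has a replicate check, so no test was run, and the 95% intervals in brackets (exact Poisson for levels, exact binomial for ratios, Clopper-Pearson for shares of cells) cover counting error only.

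After filters on detected genes, mitochondrial share and UMIs (unique molecular identifiers, 1 per captured RNA molecule), 8795 Ctrl and 5347 cKO cells remained, and 8518 and 5044 of them were placed in 1 of 18 cell types by marker genes that hold neither the inhibitors nor the proteases. The neutrophil stages were ProNeu-like (949 Ctrl and 856 cKO cells), PreNeu-like (792 and 588), imNeu-like (2043 and 1597) and mNeu-like (1451 and 1222), after HSC/MPP-like cells (503 and 140). No gate was built for granulocyte monocyte progenitors, which the paper lists as a cell type of its own. They were thus not told apart from the stages named here. Levels are given as CPM, UMIs of a gene per 1e6 UMIs summed over the cells of a type. Cells carried fewer UMIs in the Ctrl library at the late stages, with medians of 2327 in Ctrl and 6046 in cKO for mNeu-like cells against 16618 and 15985 for ProNeu-like cells. RNA of Map4k4, the targeted gene, separated the libraries little, from 0.769-fold in PreNeu-like to 1.29-fold in ProNeu-like cells, so every direction given here rests on the labels of the libraries. The border between stages was least sharp for PreNeu-like cells, of which 216 (15.7%) scored within 0.1 of another type, and their 10 leading genes held as many imNeu as PreNeu markers. The libraries share 3010 cell barcodes, and of the 2633 kept in both, 14.8% fell in the same type in both, where the shares of the types alone would give 13.6%. A cluster of barcodes with few UMIs that no marker list named held 204 Ctrl cells and 777 cKO cells (median 1224 and 1338 UMIs). In the cKO library it took in 30.4% of the ProNeu-like and 18.4% of the PreNeu-like cells but 3.20% and 1.72% of their UMIs, and it carried Elane, Camp and Retnlg together, at 4781, 17066 and 5526 CPM. A gate was built on dendritic cell markers (43 Ctrl and 9 cKO cells). Its 10 leading genes held 4 of the B cell marker list, H2-Eb1, H2-Aa, H2-Ab1 and Cd74, and 2 of its own, H2-Eb1 and H2-Aa. The B cell markers Ms4a1, Ighd, Cd22 and Cd79a were not among the 10, whereas Batf3 was. The cell type of this gate was not settled, and it is called here by H2-Eb1, H2-Aa and Cd74.

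The genes lie on 3 chromosomes of the mouse genome (GRCm38, GENCODE vM21). Serpinb1a (ENSMUSG00000044734) lies on the minus strand of chromosome 13 from 32842092 to 32851185, between the coding genes Wrnip1, 19482 bases to its left, and Serpinb1c, a close copy 30248 bases to its right. Slpi (ENSMUSG00000017002) is on the minus strand of chromosome 2 from 164354070 to 164389095, a span that overlaps Mir7678. Cst3 (ENSMUSG00000027447; 148871722 to 148875692, minus strand) and Cst7 (ENSMUSG00000068129; 150570415 to 150578944, plus strand) are on the same chromosome, 1694722 bases apart. Wfdc17 (ENSMUSG00000069792; 83703991 to 83706268) and Wfdc21 (ENSMUSG00000051748; 83746940 to 83752642) are neighbours on the plus strand of chromosome 11, with 40671 bases and only Wfdc18 between them.

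RefSeq promoter sequence (GRCm38.p6) was at hand for Slpi, Wfdc17, Cst3 and Cst7 and for Elane, Prtn3 and Ctsg. The 250 bases before the start are printed for the earliest inhibitor, Cst7, for Elane as the protease with which its RNA fell, and for the 2 latest inhibitors, Slpi and Wfdc17. Capitals mark the letters GGAAGT (the core bound by ETS factors such as PU.1), TTGCNNAA (C/EBP) and TGTGGT (RUNX) on either strand. The coordinates are chr2:150570165-150570414 (plus strand) for Cst7, chr10:79886062-79886311 (plus) for Elane, chr2:164356508-164356757 (minus) for Slpi and chr11:83703806-83704055 (plus) for Wfdc17. The starts are those of the RefSeq promoters and can differ from the ends of the GENCODE spans above. For Slpi the printed bases lie inside that span, and for Wfdc17 they reach into it.
Cst7: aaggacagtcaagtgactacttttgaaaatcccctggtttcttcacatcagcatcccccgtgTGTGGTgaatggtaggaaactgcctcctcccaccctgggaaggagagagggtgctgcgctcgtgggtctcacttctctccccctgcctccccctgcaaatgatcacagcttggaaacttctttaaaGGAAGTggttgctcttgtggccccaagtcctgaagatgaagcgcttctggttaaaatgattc
Elane: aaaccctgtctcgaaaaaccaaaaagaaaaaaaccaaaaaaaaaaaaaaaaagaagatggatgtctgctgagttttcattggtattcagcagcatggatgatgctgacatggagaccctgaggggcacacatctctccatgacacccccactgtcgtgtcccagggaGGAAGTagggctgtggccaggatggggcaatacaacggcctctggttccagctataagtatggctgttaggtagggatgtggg
Slpi: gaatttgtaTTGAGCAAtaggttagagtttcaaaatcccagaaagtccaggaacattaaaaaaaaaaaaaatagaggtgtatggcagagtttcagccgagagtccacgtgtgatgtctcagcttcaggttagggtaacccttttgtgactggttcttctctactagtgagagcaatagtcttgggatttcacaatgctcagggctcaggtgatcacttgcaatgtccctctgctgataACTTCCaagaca
Wfdc17: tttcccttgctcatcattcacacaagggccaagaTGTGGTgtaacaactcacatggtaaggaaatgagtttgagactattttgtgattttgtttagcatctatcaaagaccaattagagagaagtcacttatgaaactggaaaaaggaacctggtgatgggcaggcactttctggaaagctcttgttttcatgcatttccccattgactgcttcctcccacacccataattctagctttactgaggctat
The ETS letters lay 62 to 57 bases before the start of Cst7, 83 to 78 before Elane, 93 to 88 before Prtn3 and 205 to 200 before Ctsg, so in Cst7 and all 3 proteases with a sequence. Slpi held them on the other strand, 12 to 7 bases before its start, and neither Wfdc17 nor Cst3 did. Of all 32851 promoters in the table, 19.7% held these letters in the same window. The C/EBP letters were in Slpi alone among these 7 (9.56% of all promoters), and the RUNX letters were in Cst7, Wfdc17 and Ctsg (14.0% of all). A match describes the sequence and does not show binding.

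Serpinb1a RNA was a feature of the early and middle stages. It reached 979 CPM (959 to 999) in Ctrl and 1146 CPM (1124 to 1168) in cKO PreNeu-like cells, 11.96 and 18.5 UMIs per cell. ProNeu-like cells held 659 CPM (647 to 672) in Ctrl and 753 CPM (739 to 767) in cKO, and imNeu-like cells held 687 CPM (672 to 702) and 849 CPM (836 to 862). In mNeu-like cells 163 CPM (151 to 177) in Ctrl and 203 CPM (193 to 214) in cKO were left, and HSC/MPP-like cells had 203 and 264 CPM. PreNeu-like cells were thus the highest type in both libraries, with ProNeu-like and imNeu-like cells next, whose intervals overlapped in Ctrl only. Outside the lineage the level stayed between 39.8 and 205 CPM in the Ctrl types. In the cKO library a B-like gate of 22 cells had 574 CPM from 80 UMIs, found in 36.4% of these cells. After thinning each cell to 1000 UMIs the share was 9.09% (1.12 to 29.2), against 17.9% (14.1 to 22.4) of 351 Ctrl B-like cells. The cKO gate also held 2611 UMIs of Camp, a marker in the PreNeu and imNeu lists. How much of its Serpinb1a came from B cells was not tested.

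Slpi RNA was highest at the other end. mNeu-like cells held 2469 CPM (2419 to 2519) in Ctrl and 3149 CPM (3110 to 3189) in cKO, against 560 CPM (546 to 574) and 821 CPM (808 to 834) in imNeu-like cells. The stages before them were low, with 147 CPM in Ctrl and 169 CPM in cKO PreNeu-like cells, and ProNeu-like cells stood above these at 212 and 261 CPM. Plasma cell-like cells, the antibody-secreting end of the B lineage, were the only other type of this height. They held 1768 CPM (1678 to 1861) over 82 Ctrl cells and 2957 CPM (2810 to 3110) over 37 cKO cells, which was below mNeu-like cells in Ctrl and overlapped them in cKO. This RNA was uneven among the plasma cell-like cells: after thinning each to 1000 UMIs, the tenth of cells with most Slpi held 56.6% of it in Ctrl and 35.7% in cKO, where the same share of mNeu-like cells was 29.1% and 27.0%.

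Wfdc17 RNA was the latest and the most divided between the libraries. In mNeu-like cells it stood at 570 CPM (546 to 594) in Ctrl and 3409 CPM (3368 to 3451) in cKO. The earlier neutrophil stages held 4.80, 6.51 and 9.57 CPM in Ctrl ProNeu-like, PreNeu-like and imNeu-like cells, and 40.9, 26.3 and 62.6 CPM in cKO. Monocyte-lineage cells also carried it. ProMon-like cells had 308 CPM (295 to 322) in Ctrl and 810 CPM (784 to 837) in cKO, and the 62 macrophage-like cells of the Ctrl library had 720 CPM (601 to 856), more than its mNeu-like cells. After thinning to 1000 UMIs, the tenth of these macrophage-like cells with most Wfdc17 held 61.8% of it. In Ctrl mNeu-like cells that share was 74.3%. The 2 intervals nearly touch and leave out such spread between cells. HSC/MPP-like cells, at 54.1 CPM (48.4 to 60.4) and 150 CPM (133 to 167), stood above the ProNeu-like, PreNeu-like and imNeu-like cells.

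Wfdc21 RNA was broad across the lineage, and the highest type was imNeu-like in both libraries. These cells held 5005 CPM (4964 to 5045) in Ctrl and 5709 CPM (5675 to 5744) in cKO. PreNeu-like cells held 3566 and 4178 CPM, mNeu-like cells 2954 and 4816 CPM, and ProNeu-like cells 784 and 1323 CPM. The second place differed, with PreNeu-like cells above mNeu-like cells in Ctrl and below them in cKO, and the intervals were separate in both libraries. With 28.7 UMIs per imNeu-like cell in Ctrl and 67.6 in cKO, 99.8% and 99.9% of these cells had at least 1. The neighbours Wfdc17 and Wfdc21 therefore had different highest stages, and their levels over 28 points (gated types in each library) were nearly unrelated, with a Pearson correlation of 0.158.

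Cst7 RNA was highest in the ProNeu-like gate, from which granulocyte monocyte progenitors were not told apart. ProNeu-like cells held 286 CPM (278 to 295) in Ctrl and 365 CPM (355 to 375) in cKO. It was 37.0 CPM in Ctrl and 43.5 CPM in cKO PreNeu-like cells, and 7.86 and 4.12 CPM in imNeu-like cells. Basophil/mast-like cells, which like cytotoxic lymphocytes carry secretory granules, came second, with 159 CPM (135 to 186) and 163 CPM (129 to 204), and T/NK-like cells came next, with 111 CPM (83.3 to 145) and 147 CPM (93.4 to 221), and the intervals of these 2 types overlapped in both libraries. In cKO the interval of T/NK-like cells also overlapped that of HSC/MPP-like cells, at 85.1 CPM. In ProEry-like cells of the cKO library no UMI of Cst7 was seen, with an exact Poisson upper bound of 10.99 CPM over 22 cells.

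Cst3 RNA was the only 1 of the 6 with its highest level outside the neutrophil and HSC/MPP gates in both libraries. The H2-Aa and Cd74 gate held 7471 CPM (7177 to 7773) in 43 Ctrl cells, and its 9 cKO cells held 13598 CPM. ProMon-like cells held 1594 CPM (1564 to 1625) in Ctrl and 2079 CPM (2037 to 2122) in cKO, and Ctrl macrophage-like cells held 1111 CPM (962 to 1277). The neutrophil stages formed a shallow valley. Ctrl cells went from 591 CPM in ProNeu-like through 398 and 319 in PreNeu-like and imNeu-like to 543 in mNeu-like cells, and cKO cells from 745 through 474 and 375 to 565. The B-like gate had 999 CPM in Ctrl and 4481 CPM (4136 to 4847) in cKO, above the ProMon-like cells of that library. After thinning, 1.71% of 351 Ctrl and 13.6% of 22 cKO B-like cells held 10 or more of 1000 UMIs as Cst3, so a small number of cells made up this level.

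**Figure D1:**
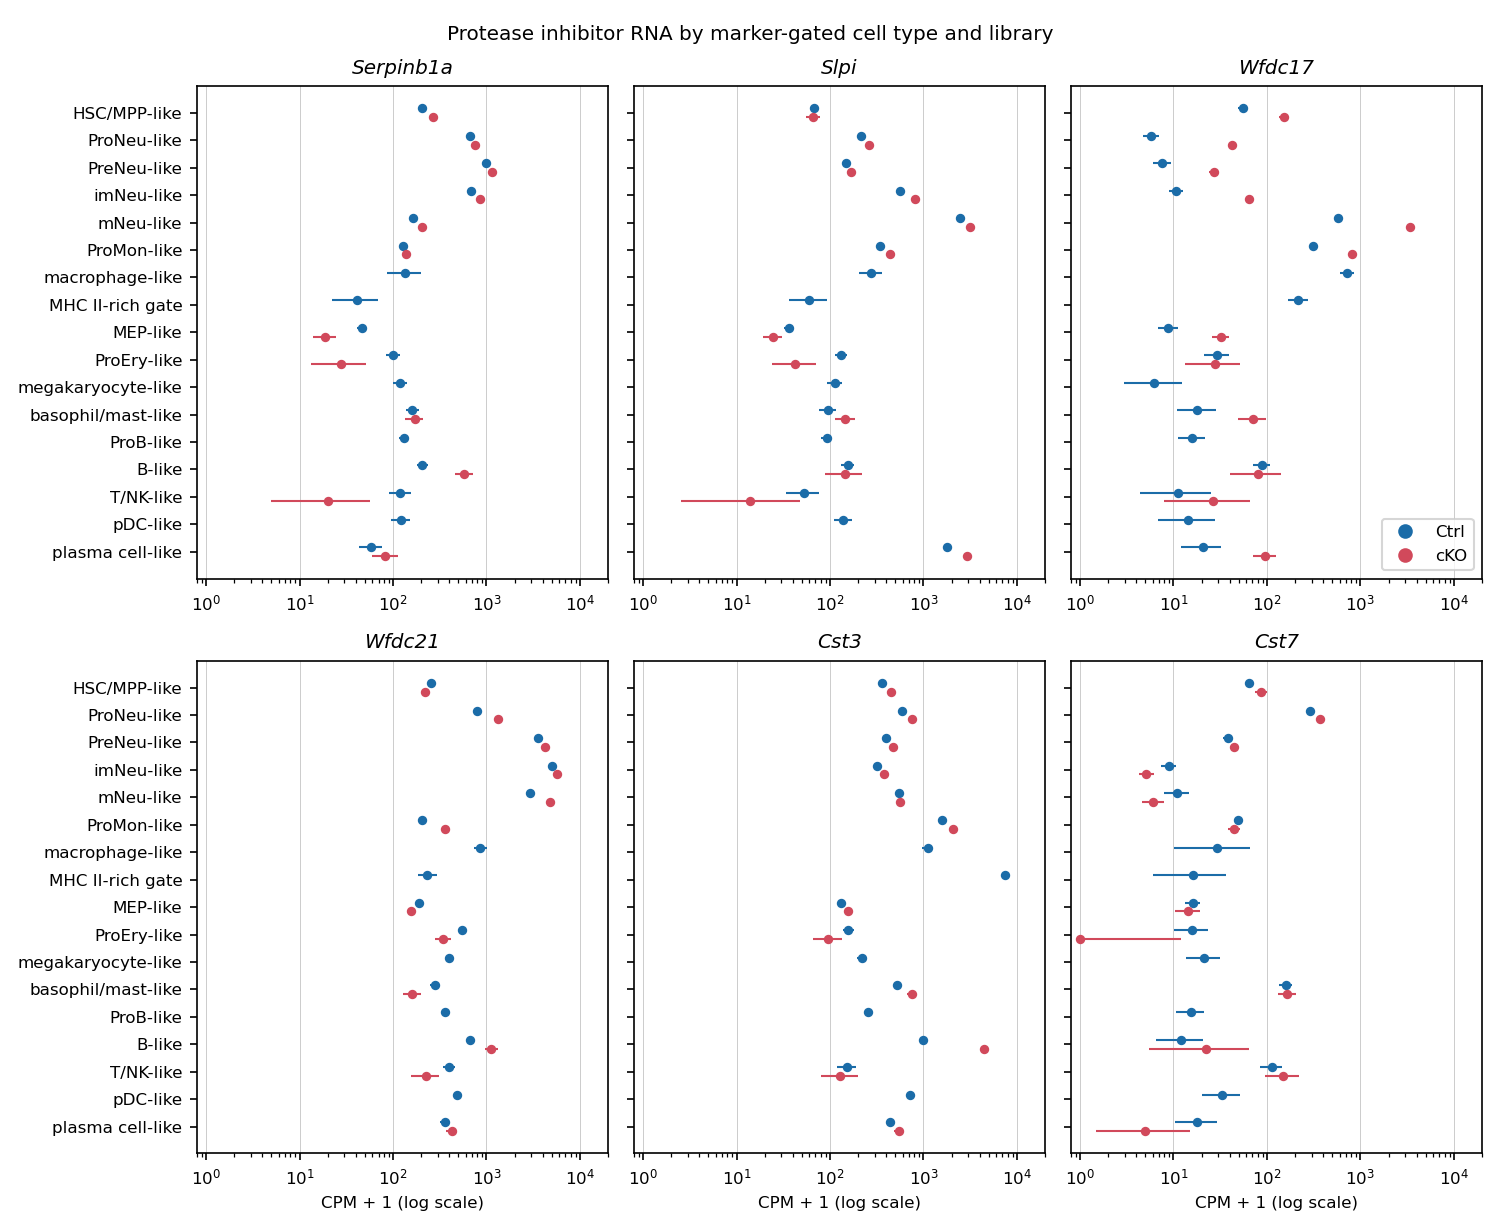
CPM + 1 on a log axis of each inhibitor in the marker-gated cell types with at least 20 cells, Ctrl in blue and cKO in red, with 95% counting intervals. Slpi peaks in mNeu-like and plasma cell-like cells, Cst7 in ProNeu-like cells, and Wfdc17 separates the libraries in mNeu-like cells (570 and 3409 CPM).

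Free RNA from lysed neutrophils reaches all droplets and sets how low a level can be read. Within 1 library it keeps its genes in 1 ratio, so Wfdc17 was set against Retnlg, an abundant gene of mature neutrophils. mNeu-like cells had 1.71 UMIs of Wfdc17 per 100 of Retnlg (1.64 to 1.78) in Ctrl and 8.62 (8.51 to 8.73) in cKO. ProNeu-like cells had 2.45 (1.92 to 3.08) and 12.04 (11.1 to 13.1), and MEP-like cells, which belong to the erythroid side, had 2.45 (1.85 to 3.20) and 12.2 (9.66 to 15.3), so both types lay above the mNeu-like ratio of their own library, with intervals that did not overlap it, and followed the difference between the libraries. ProMon-like cells stood much farther from it, with 102 (96.3 to 109) and 117 (111 to 122), as did HSC/MPP-like cells with 22.7 (20.1 to 25.7) and 42.1 (36.8 to 48.2). Some other types did not lie above the mNeu-like ratio. PreNeu-like cells had 1.75 (1.34 to 2.24) and 5.59 (4.90 to 6.35), and ProEry-like cells 1.65 (1.17 to 2.25) and 3.10 (1.40 to 5.97). Both overlapped it in Ctrl and lay below it in cKO. T/NK-like cells, at 2.89 (0.927 to 6.88) and 8.51 (2.23 to 23.3), overlapped it in both libraries. How much of the low Wfdc17 level in ProNeu-like, PreNeu-like and MEP-like cells is free RNA was not tested. In T/NK-like cells, which should lack Wfdc21, 64.0% of 136 Ctrl and 78.3% of 23 cKO cells had a UMI of it (median depth 3052 and 5987 UMIs), and shares up to that height were not read as expression.

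The order along maturation was taken from 9498 neutrophil cells of both libraries, ranked by a position made of ProNeu, imNeu and mNeu marker genes without any inhibitor or protease and cut into 10 groups of 949 or 950 cells. The serine proteases of primary granules came first and ended early. Elane held 12720 CPM in group 1 and was highest in group 2 at 13391 CPM, and by group 4 Elane, Prtn3, Ctsg and Prss57 were at 13.3% of their highest level or less. Ctsg, Prtn3 and Prss57 were highest in group 1. The mean group, weighted by CPM, was 1.68 for Ctsg, 1.84 for Elane, 1.87 for Prtn3 and 2.48 for Prss57, where the median over 2179 genes was 5.44.

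Cst7 fell with the proteases, and Serpinb1a, Wfdc21, Slpi and Wfdc17 had their highest level or their mean group after them, while Cst3 was high at both ends. Cst7 was highest in group 1, at 341 CPM, as were 36.1% of all genes, and fell to 4.66 CPM by group 7, 73.2-fold lower. Its mean group of 1.84 was earlier than that of nearly all genes, of which 0.0918% came before it. Serpinb1a was highest 1 group later, in group 2 at 1146 CPM (8.26% of genes peaked there). It kept at least 0.5 of that level through group 7, where Elane did so through group 2, and its mean group was 4.41. Wfdc21 was highest in group 7, at 5877 CPM (4.77% of genes), with a mean group of 6.15. Slpi and Wfdc17 were highest in the last group (27.4% of genes), at 3384 and 4890 CPM, with mean groups of 8.11 and 9.50, and 97.2% and 99.9% of genes came before them.

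Slpi rose over several groups, whereas Wfdc17 rose at the very end. Slpi first held at least 0.5 of its highest level in group 8, and Wfdc17 only in group 10, after 10.9 CPM in group 1, a 451-fold range. Cst3 was also highest in group 10, at 691 CPM, but was lowest in group 6 at 322 CPM and stood at 97.3% of its highest level in group 1, together with the proteases. Its mean group of 5.42 lay near the median of all genes and describes a valley, not a peak. Of the 24 pairs of an inhibitor with 1 of the 4 serine proteases, the inhibitor had the later mean group in 21, of which 4 are those of Cst3, and the 3 exceptions were Cst7 against Elane, Prtn3 and Prss57. The first of these is a difference of 1.836 against 1.839, and in the Ctrl library alone 23 of the 24 pairs had the inhibitor later. Nearly all genes came after these proteases. Of the 2179 genes, 0% had an earlier mean group than Ctsg, 0.138% than Elane, 0.184% than Prtn3 and 1.61% than Prss57. A later mean group than these proteases is thus not particular to the inhibitors.

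**Figure D2:**
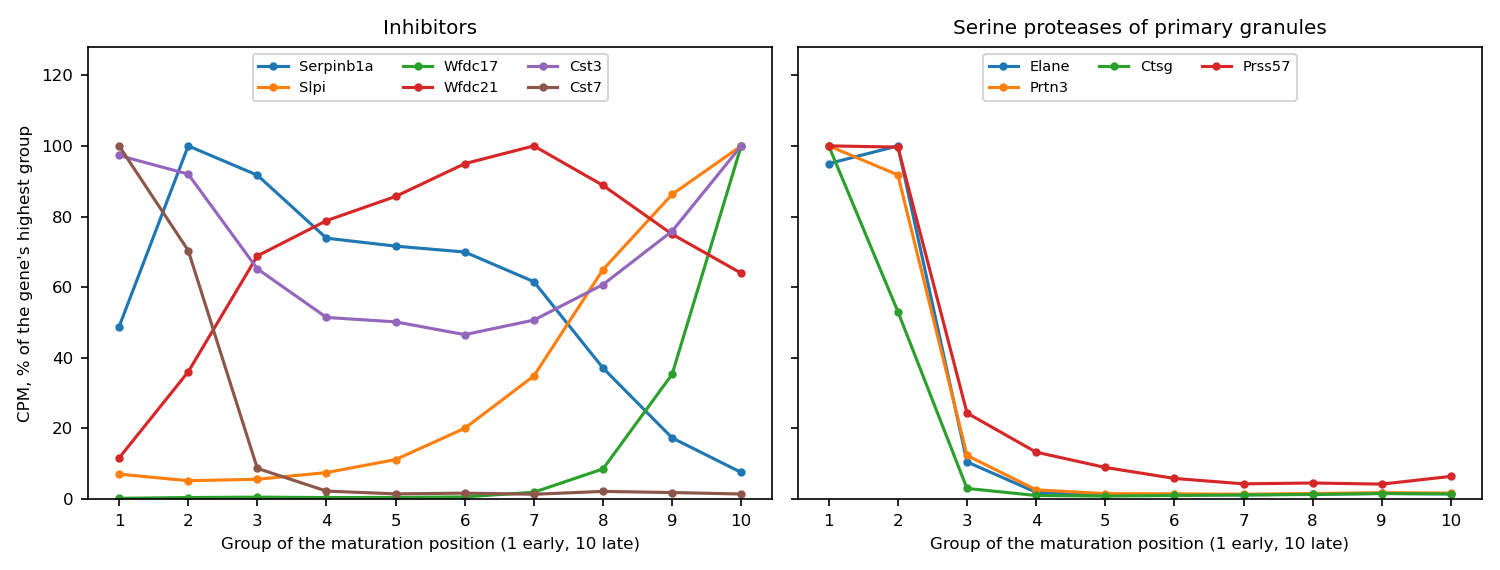
CPM of each gene as a percentage of its own highest group, over 10 groups of cells along the maturation position (both libraries summed), with the 6 inhibitors on the left and 4 serine proteases on the right. Cst7 falls together with the proteases, Cst3 is high at both ends, and Slpi and Wfdc17 reach their highest level in group 10.

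Within ProNeu-like cells, the cells richest in protease RNA also held most Serpinb1a, Cst7 and Wfdc21 and, by a smaller margin, most Cst3. The cells of each library were divided into 5 equal parts by the share of UMIs from the 4 serine proteases, and the inhibitors were counted as CPM of the remaining UMIs. From the poorest to the richest part, in which proteases made up 0.866% and 3.73% of UMIs in Ctrl and 1.04% and 4.69% in cKO, Serpinb1a went from 259 to 991 CPM in Ctrl and from 362 to 1003 CPM in cKO. Cst7 went from 148 to 393 CPM and from 179 to 486 CPM. Wfdc21, at its lowest neutrophil stage here, went from 210 to 1313 CPM and from 702 to 1813 CPM. Cst3 changed less, from 583 to 696 CPM and from 703 to 824 CPM, and in Ctrl it was lowest in the middle part, at 556 CPM. Slpi ran the other way, from 286 to 173 CPM in Ctrl and from 362 to 239 CPM in cKO, and so did Wfdc17, from 6.70 to 1.19 CPM and from 140 to 16.6 CPM. In cKO the unnamed low-UMI cluster held 645 CPM of Slpi among ProNeu-like cells, against 248 CPM in the cells outside it, and its part in these values was not tested. Depth moved with these parts, since the median went from 8929 to 18778 UMIs in Ctrl and from 1601 to 29135 in cKO, and its part in the result was not tested.

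The ratio of inhibitor to protease RNA therefore turned over during maturation. ProNeu-like cells held 2.81 UMIs of Serpinb1a (2.75 to 2.86) per 100 UMIs of Elane, Prtn3 and Ctsg in Ctrl and 2.30 (2.26 to 2.35) in cKO. In imNeu-like cells the ratio was 158 (152 to 163) in Ctrl and 263 (255 to 271) in cKO, more inhibitor than protease RNA, and in mNeu-like cells it was back at 23.1 and 49.6. Slpi went from 0.903 per 100 in Ctrl and 0.799 in cKO ProNeu-like cells to 349 (334 to 364) and 768 (740 to 797) in mNeu-like cells. Cst7 changed far less in this ratio. Among the neutrophil stages it was lowest in PreNeu-like cells, at 0.988 (0.888 to 1.10) in Ctrl and 0.894 (0.810 to 0.985) in cKO. It was highest in imNeu-like cells, at 1.80 (1.45 to 2.22) and 1.28 (1.01 to 1.60), with intervals that overlapped those of mNeu-like cells. The imNeu-like and mNeu-like values rest on 38 to 92 UMIs of Cst7. HSC/MPP-like cells had higher values, 2.34 (2.11 to 2.59) in Ctrl and 2.49 (2.13 to 2.89) in cKO. The late cells carried little protease RNA, 2734 UMIs of the 3 genes over 1451 Ctrl mNeu-like cells and 3178 over 1222 cKO cells, and part of that can be free RNA.

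**Figure D3:**
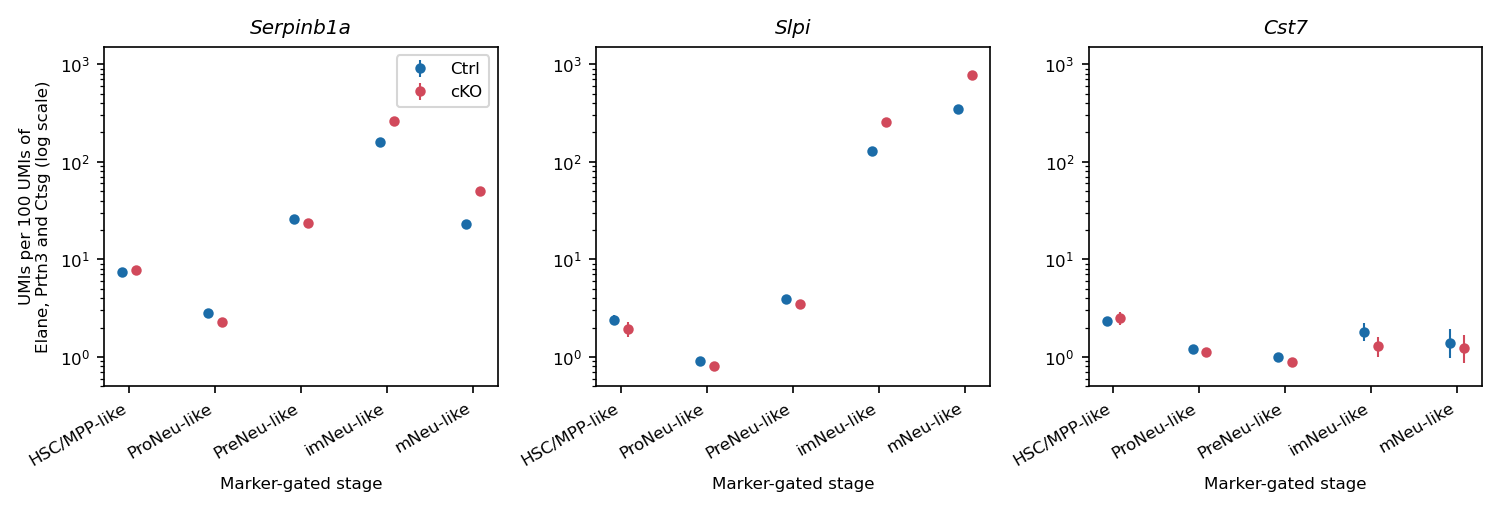
UMIs of Serpinb1a, Slpi and Cst7 per 100 UMIs of Elane, Prtn3 and Ctsg (log axis) in the HSC/MPP-like and neutrophil gates, Ctrl in blue and cKO in red, with 95% counting intervals. Slpi reaches 349 and 768 in mNeu-like cells, and Cst7 stays between 0.894 and 2.49.

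Cst7 and Ctsc, the cathepsin C gene it can restrain, did not keep a ratio. ProNeu-like cells held 807 UMIs of Cst7 per 100 of Ctsc (739 to 883) in Ctrl and 960 (880 to 1048) in cKO. ProMon-like cells held 13.8 (12.2 to 15.5) and 6.30 (5.42 to 7.28). Ctsc RNA was mostly that of monocyte-lineage cells, at 349 CPM in Ctrl and 693 CPM in cKO ProMon-like cells against 35.5 and 38.0 CPM in ProNeu-like cells. Cst3 per 100 UMIs of the cathepsins B, L, S, H and Z was 127.7 in Ctrl and 148 in cKO ProNeu-like cells, 199 and 193 in mNeu-like cells, and 90.2 and 87.1 in ProMon-like cells.

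Between the libraries, Wfdc17 stood apart from the other 5 genes. For mNeu-like cells the log2 ratio of its CPM in the cKO library to that in Ctrl was 2.58 (2.52 to 2.64). The same ratio was 2.71 (2.43 to 3.00) for imNeu-like, 2.01 (1.61 to 2.44) for PreNeu-like and 3.09 (2.74 to 3.46) for ProNeu-like cells. HSC/MPP-like cells had 1.47 (1.24 to 1.70) and ProMon-like cells 1.39 (1.32 to 1.47). No interval of these 6 types included 0. Among genes with a mean of at least 50 CPM, 0.904% of 2102 were more than 2-fold higher in cKO mNeu-like cells and 3.62% were more than 2-fold lower, and Wfdc17 was the 1 inhibitor of the 5 that passed the level filter among the higher ones. It was also the 1 of 6 in HSC/MPP-like cells, where 0.0631% of genes were higher and 0.536% lower by that margin, and the 1 of 5 in ProMon-like cells (0.475% and 0.887%). At equal depth HSC/MPP-like cells parted little. After thinning each cell to 1000 UMIs, 5.96% (4.06 to 8.41) in Ctrl and 7.86% (3.99 to 13.6) in cKO had a UMI of Wfdc17, with overlapping intervals.

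In ProNeu-like, PreNeu-like and imNeu-like cells Wfdc17 was under the level filter, and the remaining inhibitors that passed it, 5, 4 and 4, stayed within 2-fold. There 0.149%, 0.146% and 0.594% of all genes were higher by more than 2-fold and 0.446%, 0.682% and 1.35% lower. The low early levels of Wfdc17 moved with the unnamed cluster of low-UMI barcodes, and the part of free RNA in them was not tested. That cluster held Wfdc17 at 379 CPM among cKO ProNeu-like cells and 506 CPM among cKO PreNeu-like cells, against 29.7 and 17.9 CPM in the cells outside it. Without it the log2 ratio was 2.64 in ProNeu-like and 1.45 in PreNeu-like cells, and 2.59 in mNeu-like cells.

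The mNeu-like difference in Wfdc17 was seen in the share of cells and in the cells with most RNA. After thinning every cell to 1000 UMIs, 24.9% of Ctrl (22.7 to 27.3) and 67.4% of cKO (64.7 to 70.1) mNeu-like cells had at least 1 UMI, and before thinning the shares were 34.6% and 87.6%. In T/NK-like cells, which should lack this gene, the thinned shares were 0.735% of 136 and 0% of 23 cells, and the latter has an upper bound of 14.8%. Cells with 10 or more of 1000 UMIs made up 1.45% in Ctrl and 13.9% in cKO, and the highest cells held 15 and 34. The tenth of cells with most Wfdc17 carried 74.3% of its UMIs in Ctrl and 42.5% in cKO.

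Clustering without the inhibitors and proteases gave 3 clusters named mNeu, and Wfdc17 was higher in cKO in each. In the cluster that held cells of both libraries in like numbers (327 Ctrl and 426 cKO) it was 1946 and 7790 CPM. Wfdc21 also parted there, at 1585 and 4013 CPM, whereas Slpi was 3435 and 3751 CPM. The cells of this cluster differed between the libraries in depth (median 1945 and 5468 UMIs) and in Retnlg (13881 and 32450 CPM), and the part of either in these values was not tested. In a cluster of 1299 Ctrl and 65 cKO cells with nearly equal depth (median 2517 and 2582 UMIs) it was 258 and 1365 CPM, and in 1 of 51 Ctrl and 953 cKO cells it was 60.5 and 1144 CPM. Library and cell state cannot be told apart in any of the 3. Along the maturation groups, Wfdc17 in cKO exceeded Ctrl in 10 of 10 groups, reaching 504 and 2276 CPM in group 9 and 1227 and 6139 CPM in group 10. Retnlg also differed there, at 35783 and 43337 CPM in group 9 and 29064 and 38044 CPM in group 10. Whether the cells of a group match in maturation between the libraries was not tested.

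**Figure D4:**
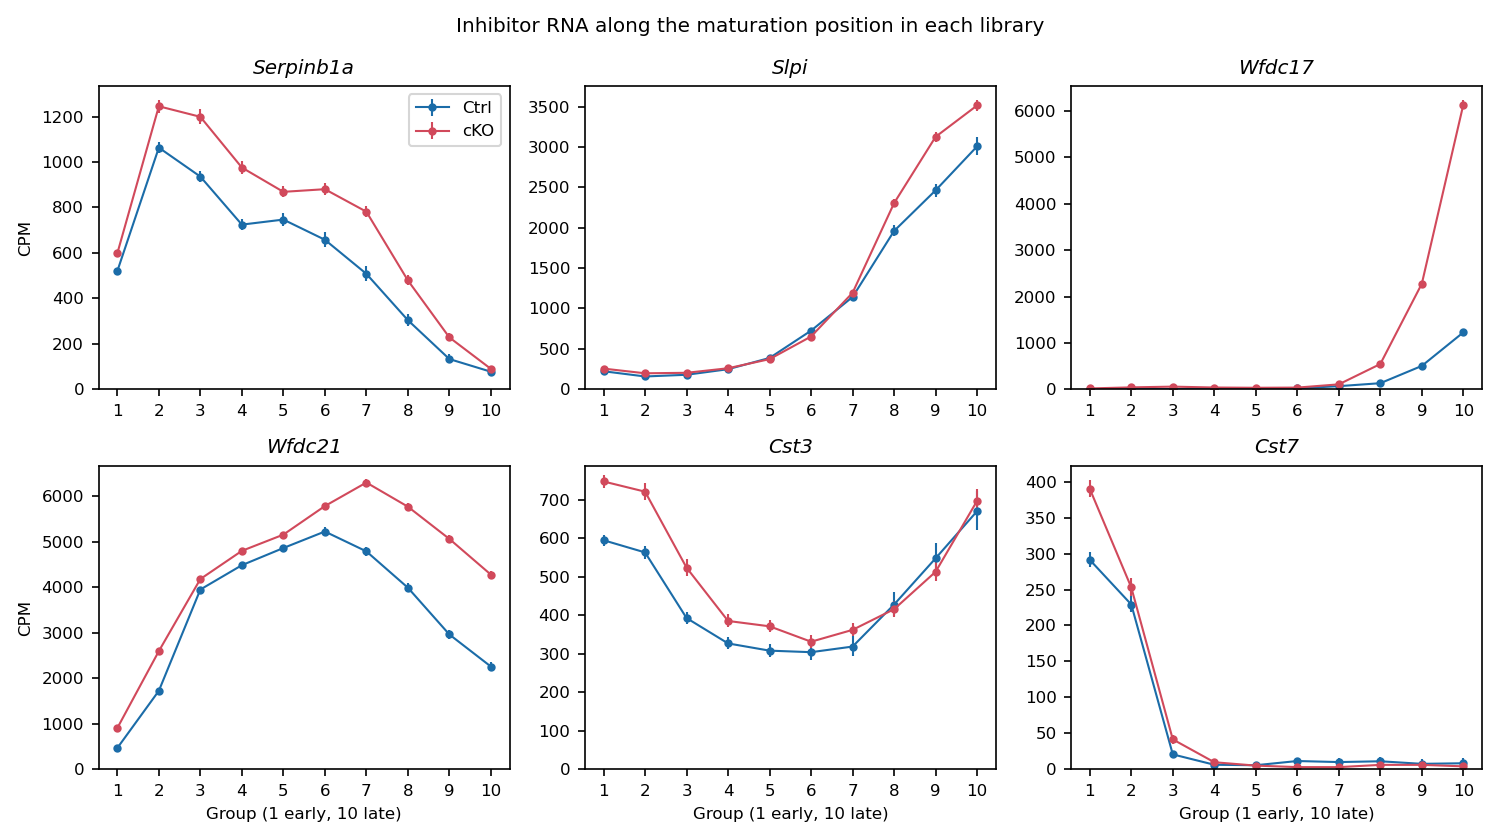
CPM of each inhibitor over the 10 maturation groups in Ctrl (blue) and cKO (red) with 95% counting intervals, each panel on its own axis from 0. Wfdc17 parts in the last 3 groups (1227 and 6139 CPM in group 10), and Wfdc21 is higher in cKO at both ends of the order (group 10, 2253 and 4273 CPM).

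The other inhibitors differed less between the libraries in the summed stages. Of the 30 ratios of 6 genes in 5 stages, 26 were above 0. Counted genes as a whole were not centred on 0, because the median log2 ratio over all genes tested was below 0 at each stage, from -0.09 (HSC/MPP-like) over -0.12 (ProNeu-like), -0.14 (PreNeu-like) and -0.20 (imNeu-like) to -0.29 (mNeu-like). Relative to that median, 27 of the 30 ratios were above 0. The shifts below are therefore given as CPM ratios, with the value relative to the median gene where it differs most.

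Wfdc21 had a log2 ratio of 0.71 (0.67 to 0.74) in mNeu-like cells, or 0.999 relative to the median gene, and 0.76 (0.72 to 0.79) in ProNeu-like cells, whereas in PreNeu-like and imNeu-like cells it was 0.23 (0.21 to 0.25) and 0.19 (0.18 to 0.20). It was larger at the 2 ends of the order, 1.95-fold in group 1 and 1.90-fold in group 10 against 1.06-fold in group 5. In HSC/MPP-like cells the log2 ratio of Wfdc21 was -0.22 (-0.37 to -0.07). Its level there, 252 CPM in Ctrl and 217 CPM in cKO, was no higher than in T/NK-like cells (398 and 224 CPM). The part of free RNA in it was not tested. Slpi was 0.35 (0.32 to 0.39) in mNeu-like and 0.55 (0.51 to 0.59) in imNeu-like cells. Within the maturation groups that these imNeu-like cells mostly fill, however, Slpi was close in both libraries or lower in cKO. In group 7 it was 1142 CPM in Ctrl and 1194 CPM in cKO, a log2 ratio of 0.06 (-0.009 to 0.14). In group 6 it was 726 and 653 CPM, lower in cKO beyond counting error at -0.15 (-0.24 to -0.07). In group 5 the log2 ratio was -0.06 (-0.15 to 0.04). Retnlg, however, was 4445 CPM in Ctrl and 2484 CPM in cKO in group 6, and 15000 and 9631 CPM in group 7. In group 5 it was 801 and 778 CPM. Cells of a group may thus differ in maturation between the libraries, and the part of this in the Slpi values was not tested.

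Serpinb1a differed little between stages, with 0.19 (0.15 to 0.23) for ProNeu-like and 0.23 (0.19 to 0.27) for PreNeu-like cells. Its later values were 0.31 (0.27 to 0.34) for imNeu-like and 0.32 (0.18 to 0.45) for mNeu-like cells, and it was higher in cKO in 10 of 10 maturation groups, in 9 of them beyond counting error. Within groups 7, 8 and 9 the difference was larger than in any summed stage, at 1.54-, 1.58- and 1.72-fold, and in group 10 it was 1.16-fold with an interval that included no change. Retnlg was not level within these groups. It was 15000 CPM in Ctrl and 9631 CPM in cKO in group 7, and 31073 and 28491 CPM in group 8. In group 9 it ran the other way, at 35783 and 43337 CPM. Whether cells of a group match in maturation between the libraries was not tested. Cst3 was 0.33 (0.29 to 0.37) in ProNeu-like and 0.06 (-0.02 to 0.13) in mNeu-like cells, the latter not separable from 0 by counting error. Cst7 was 0.35 (0.29 to 0.41) in ProNeu-like cells, where it is abundant. The few UMIs left in imNeu-like cells (92 in Ctrl and 78 in cKO) gave -0.93 (-1.38 to -0.48), and those of mNeu-like cells (38 and 39) gave -0.97 (-1.65 to -0.28). The values of 3 early comparisons turned when the cells with barcodes found in both libraries were left out, to -0.078 for Serpinb1a and -0.12 for Cst7 in HSC/MPP-like cells (0.38 and 0.41 with them) and to -0.019 for Cst7 in PreNeu-like cells (0.23 with them).

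**Figure D5:**
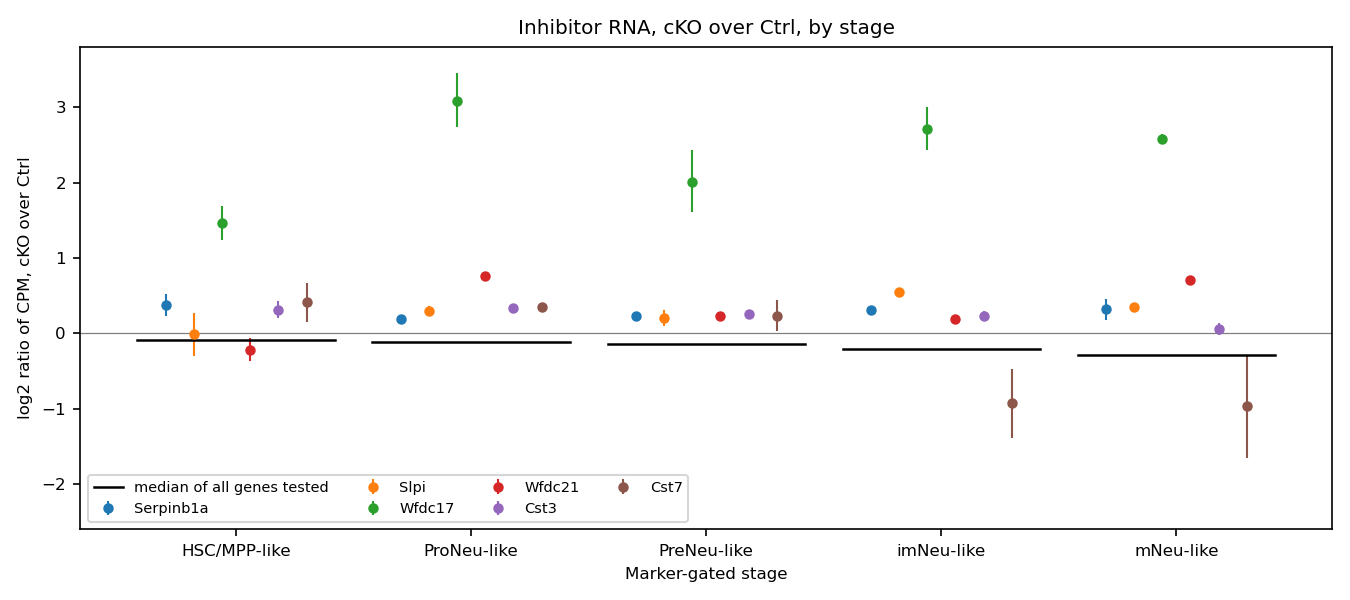
Log2 ratio of CPM, cKO over Ctrl, of the 6 inhibitors in 5 marker-gated stages with 95% counting intervals, and the median of all genes tested as a black line. Wfdc17 lies between 1.47 and 3.09, and among these stages Cst7 is below 0 at the last 2, with -0.93 and -0.97.

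After thinning to 1000 UMIs, 14 of 24 comparisons of an inhibitor in a neutrophil stage had a higher share of cells with a UMI in cKO, with intervals that did not overlap. Of the 18 comparisons in which the gene reached a mean of 50 CPM, 11 were of this kind, where the same was true of 5.02% of the 8697 pairs of a gene and a stage at that level. In the other direction, 16.6% of the 8697 pairs were lower in cKO with separate intervals, and 27.9% of those in mNeu-like cells. Wfdc17 was among the 14 in all 4 stages, Slpi and Wfdc21 in 3 each, Serpinb1a and Cst3 in 2 each, and Cst7 in none. Leaving out the unnamed cluster brought the count to 10. For Slpi in mNeu-like cells the shares were 82.7% (80.7 to 84.6) in Ctrl and 87.6% (85.6 to 89.4) in cKO.

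The proteases themselves divided by stage. All 4 serine proteases were higher in cKO ProNeu-like cells, with a median log2 ratio of 0.44 against -0.12 for all genes tested, and the same 4 of 4 held in HSC/MPP-like and PreNeu-like cells. Elane stood at 11757 CPM in Ctrl and 15366 CPM in cKO, and Ctsg at 3604 and 5888 CPM. At the last 2 stages the 3 that passed the level filter were all lower in cKO. Their medians were -0.60 for imNeu-like and -0.82 for mNeu-like cells, against -0.20 and -0.29 for all genes tested. Prtn3 in imNeu-like cells turned to 0.03 relative to the median gene. Elane was 207 CPM in Ctrl and 134 CPM in cKO imNeu-like cells, and 335 and 188 CPM in mNeu-like cells. None of these ratios passed 2-fold. The share of all genes that were higher or lower in cKO by any margin was not counted at these stages. The levels at the last 2 stages are far below those of ProNeu-like cells, and the part of free RNA in them was not tested.

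Of the 7 cysteine proteases, 2 reached 50 CPM in ProNeu-like cells and 3 in mNeu-like cells. Of these 3, 1 was higher and 2 were lower in cKO beyond counting error, a share that was not counted over all genes. Ctsb, a lysosomal cathepsin, was 77.9 CPM in Ctrl and 109 CPM in cKO mNeu-like cells, and Ctsz was 71.2 and 58.2 CPM, which is the ratio of the median gene. In ProMon-like cells 5 of the 7 reached that level and all 5 were higher in cKO, a share that was not counted over all genes either. The median of these 5 was 0.46 against -0.085 for all genes tested, and Ctsc had a log2 ratio of 0.99 (0.91 to 1.07). Among other granule and lysosomal proteases, Mmp9 (gelatinase B), Mmp8 (neutrophil collagenase), Ctsd and Adam8 were the most abundant. In mNeu-like cells Mmp8 was 2525 CPM in Ctrl and 3187 CPM in cKO, whereas Mmp9 was 3760 and 3451 CPM and Adam8 453 and 347 CPM. Relative to the median gene Mmp9 turned to 0.17 and Adam8 stayed below at -0.09.

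Of 26 other inhibitor genes, 6 reached 50 CPM in mNeu-like cells and 11 had no UMI in the mNeu-like cells of either library. Of the 6, 5 were higher in cKO beyond counting error, 3 by more than 2-fold. Among all 2102 genes at that level, 0.904% were more than 2-fold higher, and the share higher beyond counting error was not counted. The most abundant were stefins, small intracellular cystatins, and Timp2, an inhibitor of metalloproteinases. In mNeu-like cells Stfa2 was 65.0 CPM in Ctrl and 287 CPM in cKO (log2 ratio 2.14, 4.42-fold), Stfa1 was 229 and 591 CPM (1.37, 1.26 to 1.47) and Stfa2l1 was 1049 and 1223 CPM (0.22, 0.17 to 0.27). Timp2 ran the other way, at 254 and 192 CPM. The stefin genes are near-identical copies, so reads may have been divided among them, and each value is uncertain. Along the order, the mean groups of Stfa1, Stfa2 and Stfa2l1 were 8.37, 8.92 and 9.13, between those of Slpi and Wfdc17.

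The genes whose levels ran most like each inhibitor were found over the 28 points of gated type and library, among 5214 genes, as Pearson correlations of log2(CPM + 1). The points share 2 libraries and their depth, so these are descriptions. Wfdc21 ran with S100a8 (0.987), S100a9 (0.977) and Pglyrp1 (0.971), antimicrobial genes of the neutrophil cytosol and granules. Serpinb1a ran with Anxa3 (0.937), Pxylp1 (0.900) and Lbp (0.896). Cst7 ran with Nkg7 (0.892), a granule gene of cytotoxic cells, Igfbp4 (0.883) and Arsb (0.827), and its correlations with Ctsg and Prtn3 were 0.796 and 0.718. Slpi ran with Ckap4 (0.839), Ccpg1 (0.818) and Pqlc3 (0.782), of which Ckap4 and Ccpg1 encode proteins of the endoplasmic reticulum. Cst3 ran with Napsa (0.830), Ctsh (0.815) and Atp6v0b (0.814), a lysosomal set. Wfdc17 ran with Sirpb1c (0.851), Pla2g7 (0.805) and Il13ra1 (0.775). Pla2g7 is itself a marker used for the gates, as are Pglyrp1 and Nkg7.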

How the data were processed

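UMI counts were analysed as the authors deposited them: raw whole-number counts per gene and cell barcode, made with Cell Ranger 5.0.0 on mm10 per the submitters' processing notes, with no normalization and no filter of the methods applied. Cells with 200 to 9000 genes, at most 30% mitochondrial UMIs and at least 1000 UMIs were kept, which left 8795 of 10220 Ctrl and 5347 of 6872 cKO barcodes (70435113 and 63245849 UMIs). Doublets were not called here. A cell took the class with the highest mean z score of its markers (at least 3 detected, score at least 0.5). UMIs were summed per class and library and divided by the total, and the filter for the share of all genes past 2-fold was 50 CPM. The members and lists were chosen with earlier results of these data known. All members are named, other genes by list with the most abundant as examples, and the 3 most alike genes per member. Of the 32285 gene IDs, 32235 are in GENCODE vM21. Python 3.11.15, numpy 2.4.6, scipy 1.17.1, pandas 2.3.3 and leidenalg 0.10.2 were used, without integration of the libraries. The interval code was tested on simulated data. Alternatives were other floors, gates, scalings, orders and clusters (2000 variable genes, 30 principal components, 15 neighbours).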

Additional observations from a re-analysis of the deposited data

How the results depend on the processing

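No paired analysis was possible because each group has 1 library, and no library could be left out. The highest stage of the 6 inhibitors in 2 libraries (12 cases) was as reported in 11 under the mean of per-cell proportions and in 12 under each of the other 7 alternatives for the gate and the cells. The 26 of 30 ratios above 0 ranged from 24 to 27 over 10 alternatives, and the 21 of 24 later pairs from 21 to 23 over 8. Single values held less well against the counting interval of the main value. Over all alternatives, 38 levels fell outside it and 58 inside, and 87 log2 ratios moved outside, 3 reversed and 210 stayed inside. Mean groups fell outside in 61 cases and inside in 19, and shares of cells in 98 and 46. The 14 shares of cells that were higher in cKO became 9 after thinning to 2000 UMIs, which leaves fewer cells, 12 without thinning and 10 without the unnamed cluster. Without shared barcodes, 3 log2 ratios reversed: Serpinb1a and Cst7 in HSC/MPP-like cells to -0.078 and -0.12, and Cst7 in PreNeu-like cells to -0.019. The cause was not tested. Leaving out the unnamed cluster and the shared barcodes was chosen after seeing the data. For Wfdc17 in mNeu-like cells, the log2 ratio of 2.58 stayed between 2.43 and 3.01, and in ProNeu-like cells it ran from 2.14 to 4.37. Depth limits the early stages of Wfdc17 and the late stages of Cst7, which rest on 63 to 112 and 38 to 92 UMIs in Ctrl. Genotype, library and depth cannot be told apart with 1 library each.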
